A study of Oryza sativa Japonica Group with 10 samples.

Results

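On the sixth day of hydroponic culture the excised root tip of rice was set against mature root, the root system left after such tips were cut off, gene by gene. The comparison used 3 root tip and 2 mature root libraries out of 10 in all, which were the libraries labelled as day 6. The plants were cv. Nipponbare (GSOR-100), a japonica rice. After 5 days of germination in darkness, seedlings grew on a solid substrate, and at an age of 12 days they were moved into Hoagland nutrient solution with the whole plant, roots included, in the light. Both tissues were cut 6 days after the move. The root tip samples held the meristem and the elongation zone, removed with a scalpel, and the mature root samples held what remained of the root system. Every library pooled tissue of 6 plants, and separate pools count as biological replicates per the labels, which do not say whether a tip pool and a mature root pool came from the same plants. The other 5 libraries (3 tip, 2 mature root) were cut 2 days after the move from plants treated alike, and serve below as a second look at the same contrast.

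The tip of a root makes new cells in its meristem and lengthens them in the elongation zone, which takes ribosomes, new chromosomes, a mitotic spindle and loosening of the young wall. Behind it the cells stop growing, some build thick lignified walls, the endodermis and exodermis lay down Casparian strips and suberin, and the epidermis and inner tissues fill with transporters for nutrients. A comparison of both parts therefore sets growth against maturation, and also sets samples of different cell types against each other. In such whole tissue samples, fewer cells of a type and less RNA per cell cannot be told apart.

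The tip libraries held 1428128, 2560074 and 2321500 counts and the mature root libraries 2648858 and 3286439, so that 3 counts were worth between 0.809 and 2.31 CPM, a count scaled to the size of its library, on this day. CPM values below are also scaled by TMM, which corrects for the makeup of each library, and a log2 fold change is tip minus mature root, so that a positive value means a higher level in the tip. The Pearson correlation of log2 CPM was 0.78 to 0.821 between tip libraries, 0.844 between the mature root libraries and 0.59 to 0.699 between tissues. Levels are given in pool order, tip pools 1 to 3 and mature root pools 1 and 2. Many row names end in -ext in the deposited table, an ending that no source used here explains.

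The tip was set apart more by genes that were low in it than by genes that were high. Of 19234 rows tested, 255 (1.33%) were higher in the tip and 1106 (5.75%) were lower at an adjusted p under 0.05, together 7.08%, or 7.07% with a difference of at least 2-fold. The genes lower in the tip also differed by more: the median absolute log2 fold change was 2.36 for the higher and 4.06 for the lower genes, or 3.91 in size with genes at 0 counts set to their bound. A 16-fold or larger difference was fitted for 39 (15.3%) of the higher genes and 563 (50.9%) of the lower genes, and a 64-fold one for 7 and 252. As many as 133 of the lower genes had no count in any tip library, while 5 of the higher genes had none in either mature root library. The median log2 fold change over all tested rows was 0.06. Without regard to the test, all 3 tip libraries lay above both mature root libraries for 3749 rows (19.5%) and below both for 4390 rows (22.8%). The shares of all tested rows in this paragraph are the background for the counts of each list below.

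**Figure D1:**
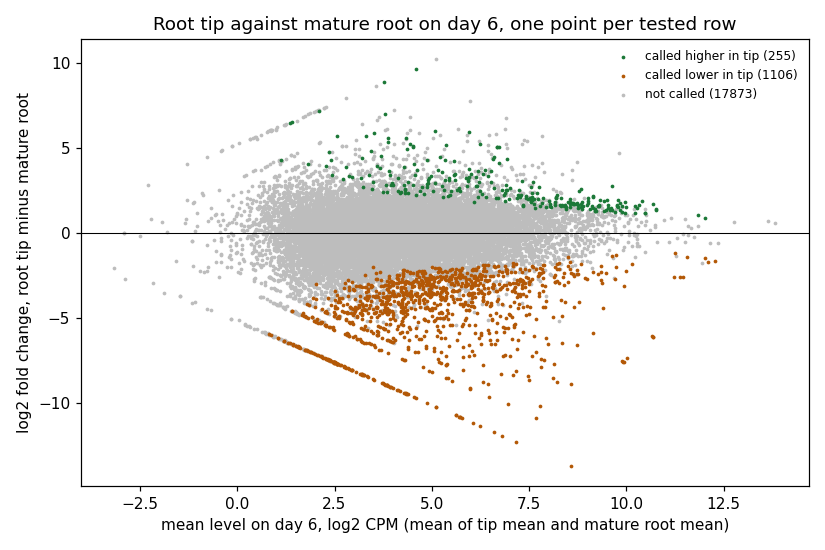
Log2 fold change of root tip minus mature root on day 6 (vertical axis) against the mean level of both tissues in log2 CPM (horizontal axis), 1 point for each of the 19234 tested rows, with called rows in colour. The 1106 genes lower in the tip reach far larger differences than the 255 higher ones, and the slanting lines at the lower left are genes with no counts in the tip.

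How many genes were called rested on single libraries, mature root pool 1 above all. Without it 1 gene was higher and 112 were lower, and 8 genes that had been called took the opposite sign. Without mature root pool 2 the counts were 28 and 790, and without tip pools 1, 2 and 3 they were 251 and 900, 61 and 318, and 150 and 598. Leaving out a day 2 mature root library, which enters through the shared estimate of spread, gave 104 and 759 or 101 and 742, and leaving out tip pool 1 of day 2 gave 161 and 962. Calls that held whichever library was left out numbered 101, all lower in the tip. A test in DESeq2 in place of edgeR called 905 higher and 1836 lower, so that the share of higher genes among calls was 33% against 18.7%. Genes that kept their call without any 1 of the 10 libraries are named as such below.

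Marker genes of tissues gave a mixed check of the labels. None of the 7 tested root cap genes was called, and their median log2 fold change of 1.22 became 0.29 without tip pool 3, 0.64 without mature root pool 1 and 2.32 without mature root pool 2. LOC_Os01g73720 (RCLEA4) had 3.85, 25.0 and 19.3 CPM in the tip pools, against 0.893 and 5.13 CPM in the mature root pools. LOC_Os04g33520 (RCLEA6) had 3.08, 7.04 and 279 CPM in the tip pools, against 10.7 and 8.9 CPM in the mature root pools, so that its high mean in the tip came from pool 3 alone. Summed over the root cap list, the level was 43.1, 137 and 413 CPM in the tip and 46.9 and 95.5 CPM in mature root, which overlap. Cellulose synthases and laccases of secondary walls, the thick walls of xylem and fibres, were lower in the tip for 5 of 22 tested genes, with a median of -1.71. That count was 0 without mature root pool 1, 1 without mature root pool 2, and 2 and 1 without tip pools 2 and 3. The 2 genes described as ROOT HAIRLESS 1 were not called. Markers of shoot and leaf, by contrast, were lower in the tip for 27 of 32 tested genes, and their sum was 99.3, 116 and 250 CPM in the tip, against 8011 and 3420 CPM in mature root. That list is described further with the genes of photosynthesis.

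Genes for the cytosolic ribosome, the machine that makes protein, were the main group on the side of the tip. Of 274 tested members 72 (26.3%) were higher and 2 (0.73%) lower, against 1.33% and 5.75% of all tested rows. The median log2 fold change was 1.31. In 202 members all tip libraries lay above both mature root libraries, a pattern found in 19.5% of all tested rows. Ribosomal protein genes took 10.5%, 12.8% and 11.3% of all counts in the tip libraries, against 4.74% and 4.65% in the mature root libraries. Proteins of both subunits took part: 19 of 70 genes (27.1%) for the small subunit and 41 of 150 (27.3%) for the large subunit were higher. Both subunit lists were chosen after their values were seen. LOC_Os08g13690-ext, which encodes a protein L7 of the large subunit, had 2579, 2073 and 1737 CPM in the tip pools, against 632 and 502 CPM in the mature root pools. LOC_Os04g28180-ext, another ribosomal protein, had 1117, 1019 and 1074 CPM in the tip pools, against 312 and 274 CPM in the mature root pools. LOC_Os01g16890-ext, a member of the L7Ae type, had 1247, 1364 and 1555 CPM in the tip pools, against 427 and 306 CPM in the mature root pools. In these 3 genes every tip pool lay well above both mature root pools, and their log2 fold changes were 1.91 ± 0.31 (SE, adjusted p = 0.00762), 1.87 ± 0.30 (SE, adjusted p = 0.00762) and 1.92 ± 0.32 (SE, adjusted p = 0.00884). Positive fold changes were fitted for 248 members in all.

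The 2 ribosomal protein genes called in the opposite direction were minor copies. LOC_Os05g49020, described as L18a-1, had 3.85, 7.04 and 10.8 CPM in the tip pools, against 63.0 and 37.0 CPM in the mature root pools, a log2 fold change of -2.76 ± 0.64 (SE, adjusted p = 0.026). LOC_Os03g17580, described as L10, had 3.08, 6.25 and 11.2 CPM in the tip pools, against 109 and 10.8 CPM in the mature root pools, with a log2 fold change of -3.09 ± 0.84 (SE, adjusted p = 0.046). For LOC_Os03g17580 mature root pool 2 lay among the tip pools and mature root pool 1 alone was high, so that the tissues overlap. Ribosomal protein genes come in near-identical copies, among which the counting may have divided reads. Without mature root pool 1, 1 ribosomal gene was higher and without pool 2, 9 were. The count was 18 and 36 without tip pools 2 and 3, and 38 without either mature root library of day 2. The share of counts, which uses no test, was above 10% in every tip library and below 5% in both mature root libraries.

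Genes of cell division seldom passed the test. Medians were positive for ribosome biogenesis (0.75 over 37 tested genes), DNA replication (0.90 over 47), core histones (0.75 over 46), kinesins and spindle proteins (0.79 over 65), tubulins (0.60 over 18), cyclins and their kinases (0.52 over 62) and growth-regulating factors (0.67 over 8). The cyclin median was 0.01 without tip pool 1, and that of growth-regulating factors was 1.11 or 1.13 without mature root pool 1 or 2. Of 283 tested genes in these lists 7 were called higher and 1 lower. Over all tested rows 1.33% were higher and 5.75% lower. LOC_Os03g03650, a subunit of the replicative DNA polymerase delta, had 11.5, 9.77 and 6.29 CPM in the tip pools, against 0.893 and 0.27 CPM in the mature root pools. Summed counts were higher in the tip by a ratio of 17.6-fold (95% interval 5.71 to 88), with an adjusted p of 0.0262. This interval, like those of other ratios below, covers counting error only and not the spread between pools. LOC_Os04g49860, a helicase of DNA replication (DNA2), had 26.2, 16.0 and 11.2 CPM in the tip pools, against 0 and 1.35 CPM in the mature root pools, a log2 fold change of 4.44 ± 1.18 (SE, adjusted p = 0.0426). Both genes were near 0 in mature root and measurable in every tip pool.

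Calls among spindle and cytoskeleton genes were 2 of 65 kinesins and spindle proteins and 1 of 18 tubulins. LOC_Os02g10690-ext, a relative of the spindle protein TPX2, had 80.1, 231 and 73.6 CPM in the tip pools, against 22.3 and 24.6 CPM in the mature root pools, a log2 fold change of 2.45 ± 0.68 (SE, adjusted p = 0.049). LOC_Os09g25380-ext, a kinesin, had 23.1, 10.6 and 34.6 CPM in the tip pools, against 1.79 and 1.08 CPM in the mature root pools, a log2 fold change of 3.97 ± 1.10 (SE, adjusted p = 0.0493). LOC_Os02g07060-ext, a tubulin, had 1393, 1035 and 1019.7 CPM in the tip pools, against 521 and 304 CPM in the mature root pools, a log2 fold change of 1.48 ± 0.38 (SE, adjusted p = 0.0377). In all 3 the tissues did not overlap, though the spread within a tissue was wide for the first. LOC_Os07g01920, a nucleolar GTP-binding protein, had 401, 161 and 140.1 CPM in the tip pools, against 46.4 and 64.5 CPM in the mature root pools, a log2 fold change of 2.07 ± 0.56 (SE, adjusted p = 0.0434).

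Histones were called once in each direction. LOC_Os07g36500-ext had 781, 528 and 486 CPM in the tip pools, against 129 and 228 CPM in the mature root pools, a log2 fold change of 1.74 ± 0.48 (SE, adjusted p = 0.0493). LOC_Os03g14669-ext, a histone of low level, had 0 CPM in all 3 tip pools, against 13.8 and 6.47 CPM in the mature root pools, which is at least 18.8-fold lower in the tip from a floor of 3 counts over the 3 libraries (0.493 CPM), with an adjusted p of 0.0334. The histone list as a whole took 1.5%, 1.56% and 1.64% of counts in the tip, against 1.06% and 1.08% in mature root. On day 2 its shares overlapped, with 1.58%, 1.44% and 0.963% in the tip, against 1.39% and 1.65% in mature root. A cyclin, LOC_Os12g39830, had 41.6, 50.4 and 70.5 CPM in the tip pools, against 9.83 and 8.9 CPM in the mature root pools and just missed the threshold (adjusted p = 0.0508). A growth-regulating factor, LOC_Os02g53690, had 64.7, 51.6 and 32.3 CPM in the tip pools, against 5.81 and 11.3 CPM in the mature root pools and missed it too (adjusted p = 0.0647). Without tip pool 2, or without either mature root pool of day 6, no gene of these lists was higher in the tip. The count of higher genes was 4 without tip pool 3, 2 without tip pool 1 of day 2, and 4 and 3 without mature root pools 1 and 2 of day 2. With the DESeq2 test it was 30, but it was 4 with DESeq2 size factors, 3 with library totals as scaling, 1 in a fit of the 5 libraries of day 6 alone, and 1 or 0 with a replicate block over both days or within each day.

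**Figure D2:**
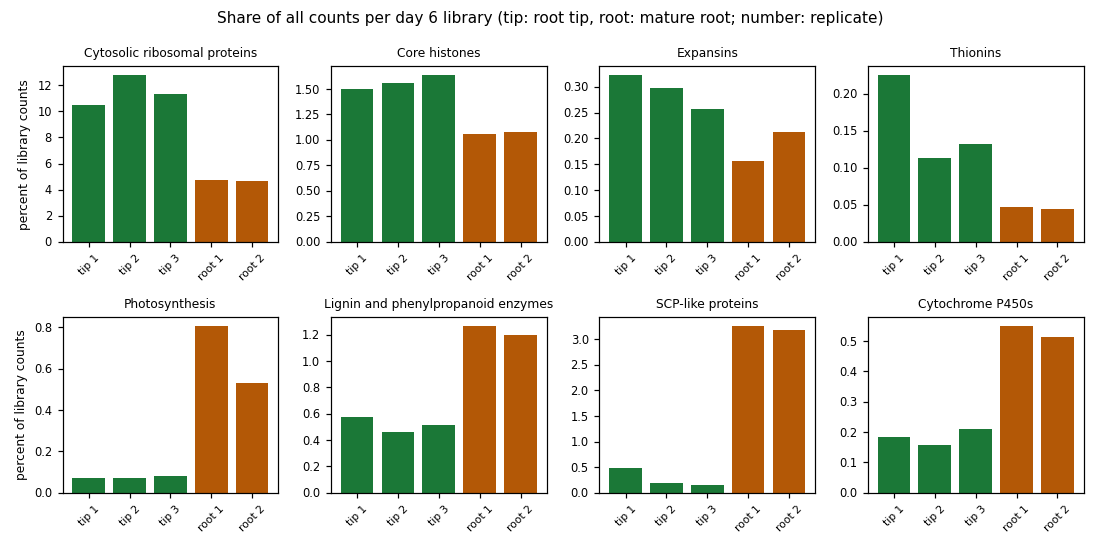
Share of all counts of a library, in percent, taken by 8 gene lists, 1 bar for each day 6 library, root tip in green and mature root in orange. Ribosomal proteins, histones and thionins take larger shares in every tip library, while photosynthesis, lignin and phenylpropanoid, SCP-like and P450 genes take larger shares in both mature root libraries.

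Thionins were among the genes that stood highest in the tip relative to mature root: they are small cysteine-rich peptides that damage the membranes of microbes. Of 15 tested thionin genes 9 were higher in the tip and none lower, with a median log2 fold change of 4.26; the family was singled out after its values were seen. Their summed level was 2479, 1131 and 1387 CPM in the tip, against 556 and 389 CPM in mature root. Of the 9, the 8 with locus numbers between LOC_Os06g31800 (THION2) and LOC_Os06g32240 (THION9) stand close together in the numbering, and the ninth was LOC_Os03g14300-ext (THION29). LOC_Os06g31890 (THION3) had 215, 73.9 and 77.2 CPM in the tip pools, against 0 and 3.51 CPM in the mature root pools, and LOC_Os06g32160 (THION7) had 38.5, 30.5 and 51.2 CPM in the tip pools, against 0 and 1.35 CPM in the mature root pools. Every tip pool held more than any mature root pool, and mature root pool 1 had no count of either gene. Their log2 fold changes were 5.94 ± 1.26 (SE, adjusted p = 0.0185) for LOC_Os06g31890 and 5.60 ± 1.06 (SE, adjusted p = 0.0126) for LOC_Os06g32160. LOC_Os06g32020 (THION6) had 376, 136 and 109 CPM in the tip pools, against 0.893 and 11.1 CPM in the mature root pools, a log2 fold change of 5.04 ± 1.11 (SE, adjusted p = 0.0218).

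LOC_Os06g31800 (THION2) had 89.3, 21.1 and 16.6 CPM in the tip pools, against 0 and 1.89 CPM in the mature root pools, and LOC_Os06g32200 (THION8) had 61.6, 40.6 and 31.4 CPM in the tip pools, against 0 and 2.16 CPM in the mature root pools. Each tip pool exceeded both mature root pools, with log2 fold changes of 5.23 ± 1.21 (SE, adjusted p = 0.0261) and 5.14 ± 1.19 (SE, adjusted p = 0.0265). LOC_Os06g31930 and LOC_Os06g31960 (THION5) had the same count in every library, 364, 141 and 95.6 CPM in the tip pools, against 0.893 and 10.5 CPM in the mature root pools, so that they cannot be told apart here and count as 1 measurement; the others are close copies and may share reads as well. LOC_Os03g14300-ext (THION29), the one outside that run of numbers, was present in mature root too, with 415, 121 and 234 CPM in the tip pools, against 67.0 and 22.4 CPM in the mature root pools, a log2 fold change of 2.52 ± 0.65 (SE, adjusted p = 0.0384). No thionin was called without mature root pool 1. On day 2 LOC_Os06g31890 had 80.8, 78.4 and 282 CPM in the tip, against 26.7 and 104 CPM in mature root, which overlap.

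Other genes far higher in the tip had no common theme, and several rested on a single pool. LOC_Os04g24340-ext, a putative phytase that would release phosphate from phytate, had 30.0, 75.0 and 28.3 CPM in the tip pools, against 0.893 and 1.62 CPM in the mature root pools, a log2 fold change of 5.04 ± 1.02 (SE, adjusted p = 0.0157). LOC_Os02g43710-ext, of the enoyl-CoA hydratase family, had 9.24, 15.2 and 10.3 CPM in the tip pools, against 0 and 0.27 CPM in the mature root pools, higher by a ratio of 72.3-fold (95% interval 12.6 to 2890) in summed counts (adjusted p = 0.0103). Those 2 were clearly apart in all 5 pools. LOC_Os09g37640, a purine permease, had 3.08, 73.1 and 5.39 CPM in the tip pools, against 0 CPM in both mature root pools, at least 66.1-fold higher from a floor of 0.505 CPM in mature root (adjusted p = 0.0478). LOC_Os12g08340, a stress responsive protein, had 2.31, 7.43 and 75.9 CPM in the tip pools, against 0.893 and 0.27 CPM in the mature root pools, a ratio of 62.2-fold (95% interval 21 to 304). LOC_Os06g08340-ext, a transcription factor with an AP2 domain, had 3.85, 7.04 and 47.6 CPM in the tip pools, against 0 and 0.54 CPM in the mature root pools, a ratio of 63-fold (95% interval 17.1 to 526). In each of these 3 a single tip pool held most of the counts, pool 2 for the permease and pool 3 for the other pair.

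Some enzymes had a steady level across the tip pools. LOC_Os03g52860, a lipoxygenase, an enzyme type that oxidises fatty acids, had 848, 662 and 742 CPM in the tip pools, against 90.7 and 174 CPM in the mature root pools. LOC_Os10g38590-ext, a glutathione S-transferase, had 83.9, 122 and 59.3 CPM in the tip pools, against 5.36 and 9.98 CPM in the mature root pools. LOC_Os02g22780, a subunit of the T-complex chaperonin that folds actin and tubulin, had 336, 307 and 342 CPM in the tip pools, against 110.3 and 111 CPM in the mature root pools. None of the 3 overlapped between tissues, and their log2 fold changes were 2.50 ± 0.55 (SE, adjusted p = 0.0209), 3.50 ± 0.62 (SE, adjusted p = 0.00968) and 1.57 ± 0.42 (SE, adjusted p = 0.0421). Levels varied more between tip pools in the next pair. LOC_Os10g41550, a beta-amylase of starch breakdown, had 25.4, 47.7 and 158 CPM in the tip pools, against 3.13 and 4.59 CPM in the mature root pools, a log2 fold change of 4.29 ± 0.92 (SE, adjusted p = 0.02). LOC_Os01g43750, a P450 described as 72A1, had 23.1, 5.47 and 90.3 CPM in the tip pools, against 0.447 and 1.89 CPM in the mature root pools, a log2 fold change of 4.93 ± 1.22 (SE, adjusted p = 0.0332).

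Regulators on the side of the tip were few. LOC_Os06g44410-ext, a histidine kinase of the kind that includes cytokinin receptors, had 157, 22.3 and 57.9 CPM in the tip pools, against 7.15 and 9.17 CPM in the mature root pools, a log2 fold change of 3.26 ± 0.86 (SE, adjusted p = 0.0421). LOC_Os04g39110-ext (GASR4), of the gibberellin-regulated GASA peptides, had 83.1, 51.2 and 26.0 CPM in the tip pools, against 3.57 and 9.98 CPM in the mature root pools, a log2 fold change of 2.94 ± 0.80 (SE, adjusted p = 0.0451). LOC_Os12g32660-ext, with the NB-ARC domain of immune receptors, had 23.9, 23.1 and 43.6 CPM in the tip pools, against 6.25 and 5.67 CPM in the mature root pools, a log2 fold change of 2.33 ± 0.62 (SE, adjusted p = 0.0421). The tissues did not overlap in any of the 3. Among 13 tested SBP-box transcription factors 2 were higher, and both were picked out after their values were seen. LOC_Os08g39890-ext (OsSPL14) had 158, 263 and 42.7 CPM in the tip pools, against 12.1 and 11.1 CPM in the mature root pools, a log2 fold change of 3.74 ± 0.78 (SE, adjusted p = 0.0174), and LOC_Os02g04680-ext (OsSPL3) had 110.1, 47.7 and 329.6 CPM in the tip pools, against 16.5 and 23.2 CPM in the mature root pools, with 3.03 ± 0.78 (SE, adjusted p = 0.0384). The median of the SBP-box family was -0.31, or 0.82 without mature root pool 2, and neither gene was called without mature root pool 1 or 2. Of the 14 genes called among those of the last 3 paragraphs, OsSPL3 not counted, all lost the call without mature root pool 1 (adjusted p up to 0.349) and 11 without mature root pool 2. Lost calls numbered 3, 7 and 6 without tip pools 1, 2 and 3, and 4 to 7 without a library of day 2.

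**Figure D3:**
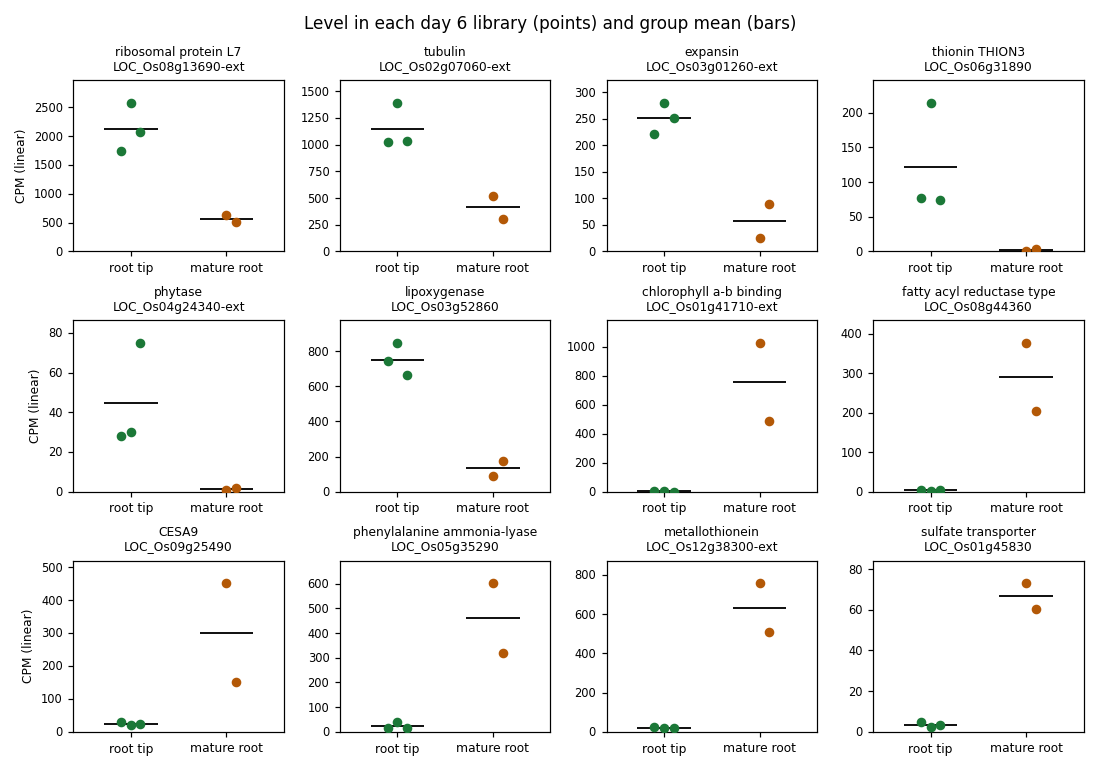
Level of 12 genes in CPM on linear axes starting at 0, 1 point per day 6 library (3 root tip at left, 2 mature root at right), with bars at group means. The tissues do not overlap in any panel, and the genes lower in the tip sit close to 0 there.

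Wall genes went both ways. Expansins loosen the wall of growing cells, and 20 of 32 tested members had a positive fold change, with a median of 1.07, which became 0.45 without tip pool 1, 0.59 without mature root pool 1 and 0.71 without mature root pool 1 of day 2. Only 1 was called higher, however, and 3 were lower. LOC_Os03g01260-ext had 281, 251 and 222 CPM in the tip pools, against 24.6 and 90.4 CPM in the mature root pools, a log2 fold change of 2.12 ± 0.58 (SE, adjusted p = 0.0481). On the other side LOC_Os09g29710, a beta-expansin, had 0 CPM in all 3 tip pools, against 332 and 115 CPM in the mature root pools, and was at least 400.0-fold lower in the tip (adjusted p = 0.0112). LOC_Os09g29690, also a beta-expansin, had 0 CPM in all 3 tip pools, against 15.6 and 4.86 CPM in the mature root pools, at least 18.1-fold lower (adjusted p = 0.0437). Both beta-expansins lost their call in the DESeq2 test (adjusted p up to 0.304). LOC_Os04g46650 had 1.54, 3.13 and 0.898 CPM in the tip pools, against 57.6 and 4.32 CPM in the mature root pools, a log2 fold change of -3.98 ± 1.08 (SE, adjusted p = 0.0451). In the expansins lower in the tip, mature root pool 1 held several times the level of pool 2.

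Enzymes that act on pectin and xyloglucan, the matrix around cellulose, were higher in the tip for 4 and lower for 7 of 60 tested genes. LOC_Os04g46740, a pectinesterase, had 155, 307 and 152 CPM in the tip pools, against 29.0 and 42.6 CPM in the mature root pools, and LOC_Os07g44070, a pectin acetylesterase, had 276, 359 and 392 CPM in the tip pools, against 87.5 and 79.9 CPM in the mature root pools. Their log2 fold changes were 2.51 ± 0.62 (SE, adjusted p = 0.0339) and 2.03 ± 0.51 (SE, adjusted p = 0.0344). LOC_Os07g38130-ext, an inhibitor of polygalacturonase, had 366, 752 and 438 CPM in the tip pools, against 177 and 154 CPM in the mature root pools, a log2 fold change of 1.65 ± 0.43 (SE, adjusted p = 0.0404). Other members of the same enzyme types had the opposite direction. The pectinesterase LOC_Os09g39760-ext had 3.85, 2.35 and 1.8 CPM in the tip pools, against 55.8 and 60.4 CPM in the mature root pools, a log2 fold change of -4.46 ± 0.77 (SE, adjusted p = 0.00967), and LOC_Os07g41650-ext had 1.54, 0 and 0 CPM in the tip pools, against 117 and 23.2 CPM in the mature root pools, lower in the tip by a ratio of 179-fold (95% interval 49.1 to 1480). A second inhibitor of polygalacturonase, LOC_Os05g01370-ext, had 0.77, 0.782 and 1.35 CPM in the tip pools, against 56.7 and 56.9 CPM in the mature root pools, a log2 fold change of -5.77 ± 0.75 (SE, adjusted p = 0.00336), and kept its call without any 1 of the 10 libraries.

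Among cellulose synthases and their relatives 2 of 30 tested genes (6.67%) were lower in the tip, near the share of all tested rows, and none higher. LOC_Os09g25490 (CESA9), which makes the cellulose of secondary walls, had 20.8, 22.7 and 30.1 CPM in the tip pools, against 452 and 149.7 CPM in the mature root pools, a log2 fold change of -3.61 ± 0.58 (SE, adjusted p = 0.00759). LOC_Os10g20260 (CSLF7), annotated as a synthase of mixed-linkage glucan, had 11.5, 1.17 and 3.59 CPM in the tip pools, against 47.3 and 72.8 CPM in the mature root pools, a log2 fold change of -3.54 ± 0.84 (SE, adjusted p = 0.0291). LOC_Os01g06580, with the fasciclin domain of cell surface proteins, had 3.08, 5.08 and 5.39 CPM in the tip pools, against 43.3 and 25.9 CPM in the mature root pools, a log2 fold change of -2.90 ± 0.65 (SE, adjusted p = 0.0228). All 3 were lower in every tip pool than in either mature root pool. Over the wall lists described so far, 5 higher and 13 lower genes became 0 and 1 without mature root pool 1, 0 and 7 without tip pool 2, 1 and 8 without tip pool 3, and 1 or 0 and 8 without a mature root library of day 2. The 5 higher genes also became 3 without tip pool 1, 1 without mature root pool 2, and 2, 2 and 3 without tip pools 1, 2 and 3 of day 2.

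Photosynthesis genes were called on the side of mature root alone. Of 54 tested members 33 (61.1%) were lower in the tip, against 5.75% of all tested rows, and none higher. The members had a median log2 fold change of -4.86, or -4.38 with genes at 0 set to their bound. They took 0.0708%, 0.0717% and 0.0822% of counts in the tip, against 0.809% and 0.531% in mature root. Of 13 tested genes for chlorophyll a-b binding proteins, which hold the pigments of the light-harvesting antenna, 12 were lower. This family was picked out after its values were seen. LOC_Os06g21590 had 0 CPM in all 3 tip pools, against 1229.5 and 292 CPM in the mature root pools, at least 1310.0-fold lower in the tip (adjusted p = 0.00119). LOC_Os01g41710-ext had 2.31, 0.391 and 2.25 CPM in the tip pools, against 1029 and 489 CPM in the mature root pools, a log2 fold change of -8.88 ± 0.85 (SE, adjusted p = 0.000859). LOC_Os04g38410 had 0, 0.782 and 0 CPM in the tip pools, against 637 and 239 CPM in the mature root pools, lower by a ratio of 1180-fold (95% interval 327 to 9780) (adjusted p = 0.000413). The tip pools lay at or near 0 for all of these, and mature root pool 1 was the higher of the pair.

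Further members of the antenna and of carbon fixation showed the same picture. LOC_Os07g38960 had 0 CPM in all 3 tip pools, against 222 and 79.0 CPM in the mature root pools, and LOC_Os02g10390 had 0 CPM in all 3 tip pools, against 131 and 89.3 CPM in the mature root pools, at least 269-fold and at least 213-fold lower in the tip. LOC_Os12g17600 encodes a small chain of Rubisco, the enzyme that fixes carbon dioxide, and had 0 CPM in all 3 tip pools, against 339.9 and 46.1 CPM in the mature root pools, at least 318-fold lower. Another small chain, LOC_Os12g19381-ext, had 0, 0 and 0.449 CPM in the tip pools, against 183 and 70.4 CPM in the mature root pools, lower by a ratio of 686-fold (95% interval 123 to 27100). A subunit of photosystem I, LOC_Os03g56670-ext, had 0, 0 and 0.449 CPM in the tip pools, against 193 and 158 CPM in the mature root pools, lower by a ratio of 1040-fold (95% interval 187 to 41300). LOC_Os04g38600-ext, a glyceraldehyde-3-phosphate dehydrogenase, had 0 CPM in all 3 tip pools, against 536 and 41.3 CPM in the mature root pools, at least 462-fold lower, and LOC_Os08g01380, with the iron-sulfur domain found in ferredoxins, had 0 CPM in all 3 tip pools, against 201 and 64.2 CPM in the mature root pools, at least 234-fold lower. Adjusted p-values of these 7 lay between 0.0019 and 0.00762.

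The shoot and leaf markers overlap with this list, since they consist of genes for the same machinery. Of 49 members 19 had no count in the tip libraries of day 6 and 9 none in the mature root libraries, and the summed level in mature root pool 1 was 8011 CPM against 3420 CPM in pool 2. Whether leaf RNA in the mature root samples had a part was not tested. All 10 photosynthesis genes named kept theirs without any 1 of the 10 libraries, the count of shoot and leaf genes lower never moved by more than 1.5 times, and the count for photosynthesis did so in a single case, 21 of 33 without mature root pool 1, where the median was -2.89. On day 2 the shoot and leaf list had a median of -7.05 and 22 genes lower.

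Genes for the barriers of the mature root, suberin, lignin and the Casparian strip, were lower in the tip wherever they were called. Of 37 tested genes for Casparian strip and suberin 12 (32.4%) were lower, against 5.75% of all tested rows, and none higher. LOC_Os08g44360, described as male sterility protein 2, the name of a class of fatty acyl reductases, had 1.54, 4.69 and 4.49 CPM in the tip pools, against 378 and 204 CPM in the mature root pools. LOC_Os07g26110, with the DUF588 domain of Casparian strip membrane proteins, had 13.9, 8.6 and 16.2 CPM in the tip pools, against 547 and 153 CPM in the mature root pools. LOC_Os11g37900, a ketoacyl-CoA synthase that lengthens fatty acids, had 3.08, 3.13 and 0.898 CPM in the tip pools, against 75.9 and 75.0 CPM in the mature root pools. All tip pools lay far below both mature root pools, with log2 fold changes of -6.27 ± 0.76 (SE, adjusted p = 0.0031), -4.76 ± 0.64 (SE, adjusted p = 0.00346) and -4.98 ± 0.79 (SE, adjusted p = 0.00714). Each of the 3 kept its call without any 1 of the 10 libraries. In the list 13 members had a positive fold change. All tip pools lay above mature root in 6 members, a share below the 19.5% of all tested rows. The list median of -0.66 was -1.30 without tip pool 1 and -0.43 without mature root pool 2.

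Phenylpropanoid enzymes supply lignin and flavonoids, and 12 of 70 tested members were lower in the tip, at a median of -1.36. As a share of counts they made up 0.575%, 0.462% and 0.511% in the tip, against 1.27% and 1.2% in mature root. Phenylalanine ammonia-lyase takes the first step of the pathway, and 3 of 5 tested genes for it were lower, or 1 without mature root pool 1. LOC_Os05g35290 had 38.5, 13.7 and 17.1 CPM in the tip pools, against 603 and 319 CPM in the mature root pools, a log2 fold change of -4.33 ± 0.65 (SE, adjusted p = 0.00599), and LOC_Os02g41680-ext, an abundant copy, had 2959.6, 1196 and 2083 CPM in the tip pools, against 7963 and 5334 CPM in the mature root pools, with -1.68 ± 0.34 (SE, adjusted p = 0.017). LOC_Os11g32650-ext, a chalcone synthase of the flavonoid branch, had 0.77, 0 and 0 CPM in the tip pools, against 304 and 190.5 CPM in the mature root pools, lower by a ratio of 1420-fold (95% interval 254 to 56100) (adjusted p = 0.0021). The last of these was close to absent from the tip, whereas the abundant lyase was present in both tissues.

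Oxidising enzymes that link lignin units include class III peroxidases and laccases. Of 92 tested peroxidases 18 (19.6%) were lower, against 5.75% of all tested rows, and none higher, while 34 had a positive fold change. The count of lower genes was 8 without tip pool 2 and 9 without tip pool 3. Peroxidase shares of counts overlapped, with 1.24%, 1.03% and 1.12% in the tip, against 1.08% and 1.39% in mature root. All tip pools lay above mature root in 15 members, a share below the 19.5% of all tested rows. LOC_Os08g02110 had 41.6, 60.6 and 48.5 CPM in the tip pools, against 999 and 663 CPM in the mature root pools, and LOC_Os03g13210-ext had 68.5, 36.7 and 41.3 CPM in the tip pools, against 313 and 502 CPM in the mature root pools. Neither gene overlapped between tissues, and the log2 fold changes were in turn -4.04 ± 0.48 (SE, adjusted p = 0.00297) and -3.06 ± 0.51 (SE, adjusted p = 0.00789). LOC_Os06g32990 had 0.77, 0 and 0 CPM in the tip pools, against 95.6 and 74.2 CPM in the mature root pools, lower by a ratio of 500-fold (95% interval 89.4 to 19800). A peroxidase of high level, LOC_Os04g59260-ext, went the other way, with 4623, 3308 and 3196 CPM in the tip pools, against 2076 and 2107 CPM in the mature root pools, but did not pass the test (adjusted p = 0.0657).

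Laccases gave smaller counts. LOC_Os01g61160 had 0, 1.17 and 0.449 CPM in the tip pools, against 5.81 and 25.9 CPM in the mature root pools, a log2 fold change of -4.57 ± 0.98 (SE, adjusted p = 0.02), and LOC_Os02g51440 had 6.93, 0 and 0 CPM in the tip pools, against 224 and 139 CPM in the mature root pools, with -6.54 ± 1.57 (SE, adjusted p = 0.0362). LOC_Os11g42200 had 0, 0.391 and 0.449 CPM in the tip pools, against 9.38 and 27.8 CPM in the mature root pools, lower by a ratio of 63.4-fold (95% interval 17.2 to 530), and LOC_Os03g16610 had 0 CPM in all 3 tip pools, against 14.3 and 6.47 CPM in the mature root pools, at least 19.1-fold lower (adjusted p = 0.0267). In both mature root pools each of the 4 exceeded every tip pool. The laccase LOC_Os02g51440 lost its call in the DESeq2 test (adjusted p = 0.326). Lipid transfer proteins, which carry lipids to the cell surface, were lower for 8 of 47 tested genes at a median of -0.75, or -0.11 without mature root pool 2. LOC_Os03g01300 (LTPL114) had 33.1, 45.7 and 14.4 CPM in the tip pools, against 289.9 and 504 CPM in the mature root pools, a log2 fold change of -3.67 ± 0.67 (SE, adjusted p = 0.0107). LOC_Os05g47700 (LTPL152) had 170.1, 86.0 and 199 CPM in the tip pools, against 706 and 684 CPM in the mature root pools, a log2 fold change of -2.20 ± 0.47 (SE, adjusted p = 0.0197), and LOC_Os07g18990 (LTPL40) had 0, 0.391 and 0.449 CPM in the tip pools, against 17.9 and 40.2 CPM in the mature root pools, lower by a ratio of 96.7-fold (95% interval 26.4 to 804). Over these 5 lists 51 genes were lower in the tip, and 11 without mature root pool 1, 28 without mature root pool 2, 20 and 30 without tip pools 2 and 3, and 34 and 33 without mature root pools 1 and 2 of day 2. Of the 16 called genes named, 10 kept their call without any 1 of the 10 libraries, while the 4 laccases, the abundant lyase and LTPL152 did not.

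**Figure D4:**
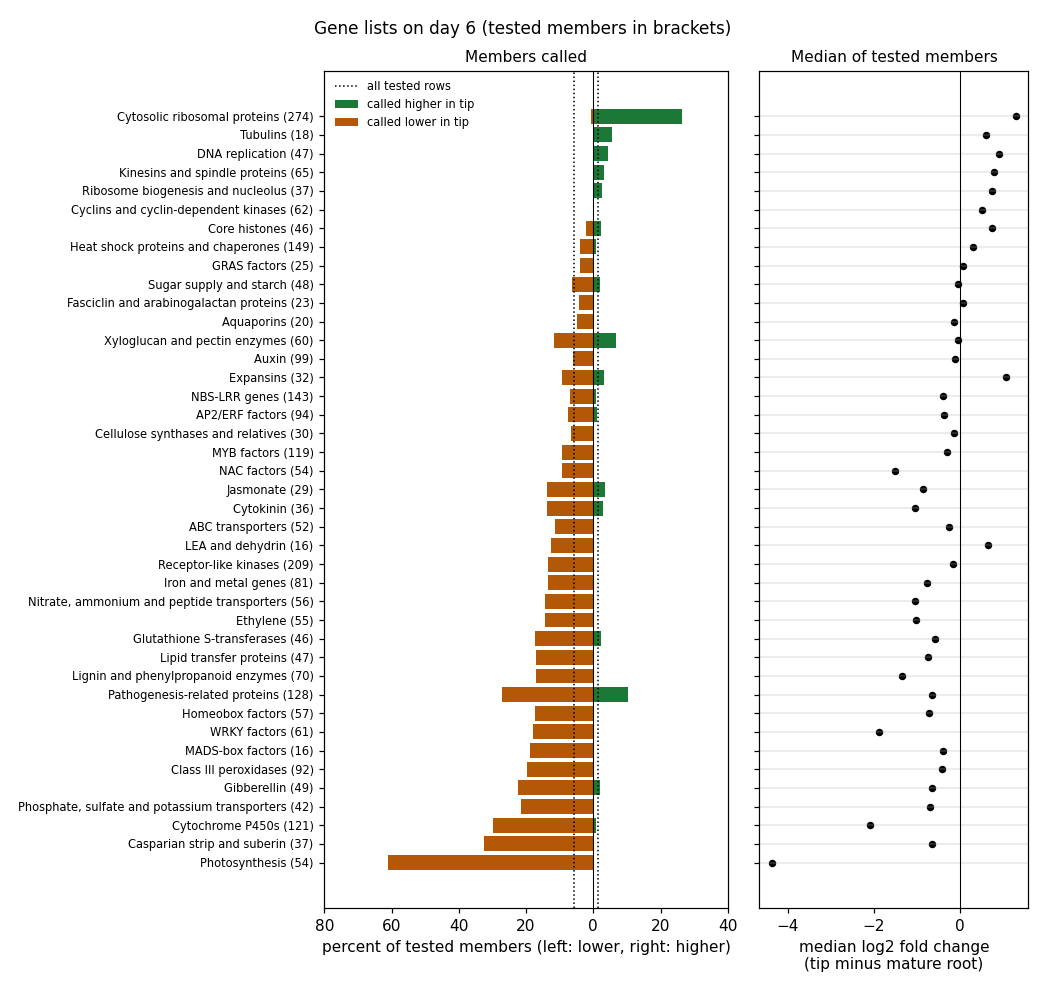
Left, percent of the tested members of each gene list called lower (bars to the left) or higher (bars to the right) in the root tip on day 6, with dotted lines at the share over all tested rows (5.75% and 1.33%). Right, the median log2 fold change of the tested members, with genes at 0 counts set to their bound. Ribosomal proteins stand out on the side of the tip, and photosynthesis, Casparian strip and suberin and P450 genes on the side of mature root.

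Transporters of mineral nutrients were lower in the tip wherever they were called. For nitrate, ammonium and peptides 8 of 56 tested genes (14.3%) were lower, against 5.75% of all tested rows, at a median of -1.04. LOC_Os06g49240, a peptide transporter of the PTR type, had 1.54, 0 and 1.8 CPM in the tip pools, against 145 and 16.2 CPM in the mature root pools, and LOC_Os02g46460, annotated as PTR2, had 20.0, 9.77 and 17.1 CPM in the tip pools, against 96.0 and 109 CPM in the mature root pools. No tip pool reached a mature root pool, with log2 fold changes in turn of -6.19 ± 1.21 (SE, adjusted p = 0.0132) and -2.72 ± 0.57 (SE, adjusted p = 0.0174). LOC_Os03g60850, also PTR2, had 0 CPM in all 3 tip pools, against 10.3 and 14.6 CPM in the mature root pools, at least 26.3-fold lower (adjusted p = 0.0193). The first of these varied widely between the mature root pools. For phosphate, sulfate and potassium 9 of 42 tested genes (21.4%) were lower at a median of -0.69. No member had all tip pools above mature root, against 19.5% of all tested rows.

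Sulfate transporters led that list. LOC_Os01g45830 had 2.31, 3.13 and 4.94 CPM in the tip pools, against 73.2 and 60.2 CPM in the mature root pools, a log2 fold change of -4.22 ± 0.84 (SE, adjusted p = 0.0149). LOC_Os03g09980-ext had 6.16, 3.91 and 18.9 CPM in the tip pools, against 116 and 184 CPM in the mature root pools, a log2 fold change of -3.94 ± 0.76 (SE, adjusted p = 0.0127). LOC_Os01g52130 had 0 CPM in all 3 tip pools, against 36.2 and 28.3 CPM in the mature root pools, at least 63.4-fold lower (adjusted p = 0.01). The tissues were far apart in all 3. Of 20 tested aquaporins, channels for water, 1 (5%) was lower, a share near the 5.75% of all tested rows: LOC_Os05g14240 had 30.0, 7.04 and 6.29 CPM in the tip pools, against 84.4 and 124 CPM in the mature root pools, a log2 fold change of -2.88 ± 0.69 (SE, adjusted p = 0.0295). Aquaporin genes together took 0.946%, 0.658% and 0.883% of counts in the tip, against 0.971% and 1.24% in mature root.

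Among genes for iron and other metals 11 of 81 tested were lower and none higher. Metallothioneins, small proteins that bind metal ions through cysteines, gave 6 lower genes of 9 tested; the family was picked out after its values were seen, and 3 were lower without tip pool 2 and 1 without mature root pool 1. LOC_Os12g38300-ext had 21.6, 18.0 and 24.7 CPM in the tip pools, against 759 and 507 CPM in the mature root pools, a log2 fold change of -4.88 ± 0.60 (SE, adjusted p = 0.0031), and kept its call without any 1 of the 10 libraries. LOC_Os01g05650 had 4.62, 4.3 and 11.2 CPM in the tip pools, against 114 and 83.9 CPM in the mature root pools, a log2 fold change of -3.86 ± 0.63 (SE, adjusted p = 0.00762). LOC_Os01g74110, a metal cation transporter, had 1.54, 0.391 and 0.898 CPM in the tip pools, against 20.1 and 44.5 CPM in the mature root pools, a log2 fold change of -5.13 ± 0.89 (SE, adjusted p = 0.00967). Of 52 ABC transporters 6 were lower, and LOC_Os11g37700, of the pleiotropic drug resistance type, had 0, 5.08 and 1.35 CPM in the tip pools, against 32.6 and 66.4 CPM in the mature root pools, a log2 fold change of -4.37 ± 0.87 (SE, adjusted p = 0.0147).

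Genes for sugar supply and starch were higher in 1 (2.08%) and lower in 3 (6.25%) of 48 tested cases, near the shares of all tested rows. LOC_Os01g52250, a starch synthase, had 49.3, 75.8 and 53.0 CPM in the tip pools, against 1636 and 925 CPM in the mature root pools, a log2 fold change of -4.43 ± 0.55 (SE, adjusted p = 0.0031), and it held without any 1 of the 10 libraries. LOC_Os04g33040-ext, an alpha-amylase, had 13.9, 10.2 and 13.0 CPM in the tip pools, against 205 and 24.8 CPM in the mature root pools, a log2 fold change of -3.22 ± 0.75 (SE, adjusted p = 0.0269). LOC_Os02g19820, of the MtN3 family that includes sugar exporters, had 3.85, 0.782 and 1.35 CPM in the tip pools, against 19.2 and 37.0 CPM in the mature root pools, a log2 fold change of -3.90 ± 0.97 (SE, adjusted p = 0.0337). The starch synthase lower in the tip and the beta-amylase higher there, given above, are enzymes of opposite function. Over all transport and sugar lists 38 genes were lower in the tip, and 3 without mature root pool 1, 16 without mature root pool 2, 9 and 22 without tip pools 2 and 3. With DESeq2 the count was 51.

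Hormone genes called were nearly all lower in the tip, 34 against 3 higher over 5 lists. For auxin 6 of 99 tested (6.06%) were lower, near the 5.75% of all tested rows. LOC_Os05g09480 (OsIAA16), a repressor of auxin response, had 3.08, 2.35 and 3.14 CPM in the tip pools, against 60.3 and 87.4 CPM in the mature root pools, a log2 fold change of -4.68 ± 0.75 (SE, adjusted p = 0.00762), and kept its call without any 1 of the 10 libraries. LOC_Os09g32770-ext, an auxin efflux carrier, had 0, 0 and 0.449 CPM in the tip pools, against 13.0 and 18.1 CPM in the mature root pools, lower by a ratio of 98.2-fold (95% interval 17.2 to 3920). LOC_Os09g26620-ext, an auxin-repressed protein, had 43.9, 14.9 and 62.9 CPM in the tip pools, against 302 and 543 CPM in the mature root pools, a log2 fold change of -3.38 ± 0.64 (SE, adjusted p = 0.0121). No tip pool reached a mature root pool in these 3.

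For cytokinin 5 of 36 tested genes were lower and 1, the histidine kinase given above, was higher; the median of -1.05 became -0.68 without mature root pool 1 and -1.58 without tip pool 3. The lower genes named by p were glucosyltransferases by their descriptions. Enzymes of this type can inactivate cytokinins by adding glucose, and whether these genes do so was not tested. LOC_Os02g51910 had 1.54, 2.35 and 1.35 CPM in the tip pools, against 14.3 and 18.9 CPM in the mature root pools, and LOC_Os07g13810 had 3.08, 0.782 and 1.8 CPM in the tip pools, against 17.4 and 37.5 CPM in the mature root pools. Tip pools were all lower than mature root pools, with log2 fold changes in turn of -3.19 ± 0.70 (SE, adjusted p = 0.0217) and -3.91 ± 0.86 (SE, adjusted p = 0.0224), and LOC_Os04g44250, with 0 CPM in all 3 tip pools, against 13.4 and 9.98 CPM in the mature root pools, was at least 22.9-fold lower. For gibberellin 11 of 49 tested genes were lower and 1 higher. LOC_Os11g13570, annotated as gibberellin receptor GID1L2, had 0, 0 and 0.898 CPM in the tip pools, against 19.7 and 24.8 CPM in the mature root pools, lower by a ratio of 69.6-fold (95% interval 18.9 to 580); the list also holds genes for ent-kaurene synthase, which are given with the terpene synthases.

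For ethylene 8 of 55 tested genes were lower, at a median of -1.02, or -0.49 without mature root pool 2. ACC oxidase makes the hormone, and the neighbours by number LOC_Os05g05670-ext and LOC_Os05g05680 had 7.7, 0 and 0.898 CPM in the tip pools, against 232 and 168 CPM in the mature root pools for the first and 3.85, 0 and 0 CPM in the tip pools, against 136 and 85.0 CPM in the mature root pools for the second. Their log2 fold changes were -6.31 ± 1.12 (SE, adjusted p = 0.00974) and -6.73 ± 1.26 (SE, adjusted p = 0.012). For jasmonate 4 of 29 tested genes were lower and 1 was higher. The higher gene was the lipoxygenase given above, counted here by its description, and whether it acts in jasmonate synthesis was not tested. LOC_Os06g11210, an oxophytodienoate reductase of jasmonate synthesis, had 8.47, 2.74 and 1.35 CPM in the tip pools, against 381 and 72.6 CPM in the mature root pools, a log2 fold change of -5.83 ± 0.91 (SE, adjusted p = 0.00687). LOC_Os06g21820-ext, a jasmonate methyltransferase, had 4.62, 1.56 and 2.69 CPM in the tip pools, against 67.9 and 76.3 CPM in the mature root pools, a log2 fold change of -4.64 ± 1.10 (SE, adjusted p = 0.0289). LOC_Os03g28940-ext, with the ZIM domain of jasmonate repressors, had 14.6, 6.64 and 15.7 CPM in the tip pools, against 146 and 46.9 CPM in the mature root pools, a log2 fold change of -2.97 ± 0.76 (SE, adjusted p = 0.0375). Of the 34 hormone genes lower in the tip, the count was 2 without mature root pool 1, 21 without mature root pool 2, and 10 and 17 without tip pools 2 and 3. The 3 higher genes became 0 without mature root pool 1 and 1 without tip pool 2, mature root pool 2 or either mature root library of day 2.

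In the transcription factor families that follow, 48 of 426 tested genes were lower in the tip and 1 was higher, the AP2 factor given above. Over all tested rows 5.75% were lower and 1.33% higher. The SBP-box factors given above, with 2 of 13 tested genes higher, are not counted here. WRKY factors, many of which act in defence, were lower for 11 of 61 tested genes (18%) with a median of -1.89. LOC_Os01g18584 (OsWRKY9) had 0, 0.782 and 0.898 CPM in the tip pools, against 54.5 and 46.9 CPM in the mature root pools, and LOC_Os11g45850 (OsWRKY81) had 10.8, 11.7 and 10.8 CPM in the tip pools, against 74.6 and 118 CPM in the mature root pools. Every tip pool lay below both mature root pools, with log2 fold changes in turn of -6.20 ± 0.88 (SE, adjusted p = 0.00496) and -3.11 ± 0.56 (SE, adjusted p = 0.0106). LOC_Os01g61080 (OsWRKY24) had 3.08, 3.91 and 2.25 CPM in the tip pools, against 45.1 and 22.4 CPM in the mature root pools, a log2 fold change of -3.42 ± 0.70 (SE, adjusted p = 0.0168). NAC factors were lower for 5 of 54 tested genes (9.26%) with a median of -1.51. LOC_Os04g52810 had 2.31, 2.35 and 2.25 CPM in the tip pools, against 38.0 and 41.0 CPM in the mature root pools, a log2 fold change of -4.07 ± 0.73 (SE, adjusted p = 0.0104). LOC_Os01g70110 had 6.93, 1.17 and 7.18 CPM in the tip pools, against 463 and 26.7 CPM in the mature root pools, with -5.61 ± 1.05 (SE, adjusted p = 0.012), most of it from mature root pool 1, and LOC_Os03g21060-ext had 0, 0 and 0.449 CPM in the tip pools, against 18.3 and 18.6 CPM in the mature root pools, lower by a ratio of 113-fold (95% interval 19.8 to 4490).

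MYB factors were lower for 11 of 119 tested genes (9.24%) and homeobox factors for 10 of 57 (17.5%), against 5.75% of all tested rows. The MYB median was -0.31 with 50 members positive, and the homeobox median was -0.71 with 20 members positive. LOC_Os12g37970-ext, a MYB factor, had 7.7, 15.2 and 27.8 CPM in the tip pools, against 325 and 336 CPM in the mature root pools, and LOC_Os03g12860-ext, a homeobox leucine zipper gene, had 17.7, 5.86 and 9.88 CPM in the tip pools, against 140.2 and 153 CPM in the mature root pools. The tissues were far apart, with log2 fold changes in turn of -4.27 ± 0.56 (SE, adjusted p = 0.00336) and -3.74 ± 0.59 (SE, adjusted p = 0.00708). LOC_Os08g19650-ext, of the knotted-1 type known from shoot meristems, had 0, 1.56 and 1.8 CPM in the tip pools, against 47.8 and 49.9 CPM in the mature root pools, a log2 fold change of -5.24 ± 0.86 (SE, adjusted p = 0.00762). LOC_Os03g06930, a homeodomain protein, had 19.2, 6.25 and 12.1 CPM in the tip pools, against 389 and 101 CPM in the mature root pools, a log2 fold change of -4.30 ± 0.72 (SE, adjusted p = 0.00831). No overlap between tissues occurred in these 4, and every tip pool lay far below both mature root pools.

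AP2/ERF factors, of which many answer to ethylene or stress, were lower for 7 of 94 tested genes (7.45%) and higher for 1 (1.06%), near the 5.75% and 1.33% of all tested rows. LOC_Os03g08460 had 3.85, 3.13 and 5.39 CPM in the tip pools, against 54.5 and 45.1 CPM in the mature root pools, and LOC_Os09g28440 had 0.77, 0.782 and 0.898 CPM in the tip pools, against 35.7 and 39.1 CPM in the mature root pools. Both genes were lower in all tip pools, with log2 fold changes in turn of -3.57 ± 0.58 (SE, adjusted p = 0.00762) and -5.42 ± 0.91 (SE, adjusted p = 0.00867). Of 25 GRAS factors 1 (4%) was lower, LOC_Os11g47890-ext, with 3.08, 8.21 and 3.59 CPM in the tip pools, against 42.4 and 23.2 CPM in the mature root pools and a log2 fold change of -2.68 ± 0.67 (SE, adjusted p = 0.0339). MADS-box factors, known mostly from flowers, were lower for 3 of 16 tested genes. LOC_Os02g01360-ext (OsMADS60) had 31.6, 17.6 and 24.7 CPM in the tip pools, against 132 and 83.9 CPM in the mature root pools, a log2 fold change of -2.14 ± 0.52 (SE, adjusted p = 0.031). LOC_Os07g41370 (OsMADS18) had 2.31, 1.56 and 0.449 CPM in the tip pools, against 16.5 and 12.4 CPM in the mature root pools, a log2 fold change of -3.34 ± 0.83 (SE, adjusted p = 0.0339), and LOC_Os06g49840-ext (OsMADS16) had 1.54, 0.391 and 0.898 CPM in the tip pools, against 8.04 and 6.47 CPM in the mature root pools, with -2.97 ± 0.78 (SE, adjusted p = 0.0414). Over the 7 families 48 genes were lower, and 5 without mature root pool 1, 27 without mature root pool 2, 13 and 26 without tip pools 2 and 3, and 30 and 29 without mature root pools 1 and 2 of day 2. With DESeq2 the count was 84. Without any 1 of the 10 libraries LOC_Os01g18584, LOC_Os11g45850, LOC_Os03g21060-ext, LOC_Os12g37970-ext and LOC_Os03g12860-ext kept their call.

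Genes of defence were called in both directions. Of 128 tested pathogenesis-related genes 13 (10.2%) were higher in the tip, and 35 (27.3%) were lower, with a median of -0.66. Over all tested rows 1.33% were higher and 5.75% lower. The thionins and the SCP-like proteins may share members with this list, so their counts are not separate evidence. LOC_Os01g71340, a glycosyl hydrolase of family 17, which includes glucanases, had 0 CPM in all 3 tip pools, against 138 and 73.1 CPM in the mature root pools, at least 198-fold lower. LOC_Os06g51060 (CHIT8), a chitinase that cuts the wall of fungi, had 1.54, 2.74 and 0.449 CPM in the tip pools, against 208 and 97.1 CPM in the mature root pools, a log2 fold change of -6.52 ± 0.85 (SE, adjusted p = 0.00336). LOC_Os10g39680 (CHIT14) had 0, 0 and 0.449 CPM in the tip pools, against 54.9 and 20.2 CPM in the mature root pools, lower by a ratio of 203-fold (95% interval 35.9 to 8040), and LOC_Os10g28080, a glycosyl hydrolase, had 0 CPM in all 3 tip pools, against 107 and 104 CPM in the mature root pools, at least 214-fold lower. Adjusted p-values of these 4 lay between 0.00266 and 0.00369. The tip pools were at or close to 0 for each gene.

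SCP-like extracellular proteins, a family that includes the pathogenesis-related protein PR-1, were lower for 16 of 22 tested genes and higher for 1; they were picked out after their values were seen. They took 0.479%, 0.195% and 0.147% of counts in the tip, against 3.27% and 3.19% in mature root, and on day 2 the shares were 0.259%, 0.18% and 0.192% in the tip, against 0.372% and 0.368% in mature root. LOC_Os07g03319 had 121, 4.69 and 18.0 CPM in the tip pools, against 3464 and 3058 CPM in the mature root pools, a log2 fold change of -6.11 ± 1.01 (SE, adjusted p = 0.00789). LOC_Os07g03499-ext had 121, 4.69 and 18.0 CPM in the tip pools, against 3460.0 and 3047 CPM in the mature root pools, almost the same values, and LOC_Os07g03279-ext had 1476, 508 and 417 CPM in the tip pools, against 5750.2 and 3806 CPM in the mature root pools, a log2 fold change of -2.58 ± 0.46 (SE, adjusted p = 0.0102). Such near-identical values of neighbouring locus numbers may be reads shared by copies, so the family may hold fewer independent measurements than genes. Without mature root pool 1, 5 of these genes were lower.

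Receptor-like kinases, which sense signals at the cell surface, were lower for 28 of 209 tested genes and higher for none, while 99 had a positive fold change. LOC_Os04g25650, a cysteine-rich receptor-like kinase, had 3.08, 0 and 1.35 CPM in the tip pools, against 725 and 452 CPM in the mature root pools, and its relative LOC_Os04g25060 had 3.08, 0 and 1.8 CPM in the tip pools, against 624 and 472 CPM in the mature root pools. The tip pools stood at or near 0, and the fitted log2 fold changes were in turn -8.79 ± 1.39 (SE, adjusted p = 0.00714) and -8.51 ± 1.37 (SE, adjusted p = 0.00762). LOC_Os11g31540, described as a BRI1-associated kinase, had 0 CPM in all 3 tip pools, against 52.7 and 26.4 CPM in the mature root pools, at least 73.7-fold lower (adjusted p = 0.00502). RALF peptides, ligands of another group of such kinases, were lower for 6 of 17 tested genes, picked out after their values were seen. LOC_Os10g41980 (RALFL26) had 6.93, 2.35 and 1.8 CPM in the tip pools, against 218 and 179 CPM in the mature root pools, a log2 fold change of -5.82 ± 0.95 (SE, adjusted p = 0.00762). The RALF count was 1 without mature root pool 1, 2 without tip pool 2 and 3 without tip pool 3, mature root pool 2 or either mature root library of day 2. For immune receptors of the NBS-LRR type 10 of 143 (6.99%) were lower and 1 (0.699%) higher, again near the shares of all tested rows, 5.75% and 1.33%. LOC_Os03g48370 had 0, 0.391 and 0.449 CPM in the tip pools, against 23.2 and 24.8 CPM in the mature root pools, lower by a ratio of 73.7-fold (95% interval 20 to 614), and LOC_Os01g25720-ext had 4.62, 3.52 and 5.39 CPM in the tip pools, against 50.5 and 57.5 CPM in the mature root pools, a log2 fold change of -3.57 ± 0.63 (SE, adjusted p = 0.00967). Over the pathogenesis-related, kinase and NBS-LRR lists 14 genes were higher and 73 lower, and without mature root pool 1 they were 0 and 12, without tip pool 2 they were 7 and 32, and without mature root pool 2 they were 8 and 49. Of the 9 genes named from these 3 lists, both NBS-LRR genes lost their call without mature root pool 1 (adjusted p up to 0.0583) and the other 7 kept theirs without any 1 of the 10 libraries.

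Cytochrome P450s, oxidases of many pathways of plant metabolism, were lower in the tip for 36 of 121 tested genes (29.8%) and higher for 1 (0.826%). Over all tested rows 5.75% were lower and 1.33% higher. The P450 median was -2.10. P450 genes took 0.184%, 0.159% and 0.211% of counts in the tip, against 0.551% and 0.514% in mature root. LOC_Os04g09920 had 0, 0.782 and 0 CPM in the tip pools, against 87.1 and 62.6 CPM in the mature root pools, lower by a ratio of 218-fold (95% interval 60.1 to 1810). LOC_Os06g37300 had 0 CPM in all 3 tip pools, against 143 and 64.5 CPM in the mature root pools, and LOC_Os11g29720 had 0 CPM in all 3 tip pools, against 53.6 and 26.7 CPM in the mature root pools, at least 191-fold and at least 74.7-fold lower. The first and second of these kept their call without any 1 of the 10 libraries.

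Terpene synthases, which build the carbon skeletons of terpenes, were lower for 8 of 12 tested genes with a median of -6.82, or -5.05 with genes at 0 set to their bound; they were picked out after their values were seen. LOC_Os02g36140 had 0 CPM in all 3 tip pools, against 134 and 61.5 CPM in the mature root pools, at least 180.0-fold lower (adjusted p = 0.00967). Genes annotated as ent-kaurene synthase, which in the gibberellin pathway closes a ring system, were close to these. The gibberellin list counts such genes by description alone, and whether those named here act in gibberellin synthesis was not tested. LOC_Os02g36210 had 0.77, 0 and 0 CPM in the tip pools, against 188 and 65.0 CPM in the mature root pools, lower by a ratio of 677-fold (95% interval 121 to 26800), and LOC_Os04g10060 had 0.77, 0.391 and 0 CPM in the tip pools, against 154 and 14.6 CPM in the mature root pools, lower by a ratio of 204-fold (95% interval 56 to 1690). Mature root pool 1 held several times the level of pool 2 in the last of them. Of the 8 terpene synthases, 3 were called without tip pool 2 and none without mature root pool 1.

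Glutathione S-transferases, which attach glutathione to toxic compounds, were lower for 8 of 46 tested genes and higher for 1. LOC_Os01g72130 had 2.31, 1.17 and 2.69 CPM in the tip pools, against 91.6 and 31.8 CPM in the mature root pools, and LOC_Os01g72140 had 4.62, 0.782 and 1.8 CPM in the tip pools, against 189 and 81.5 CPM in the mature root pools. Again no tip pool reached a mature root pool, with log2 fold changes in turn of -4.89 ± 1.01 (SE, adjusted p = 0.017) and -5.90 ± 1.23 (SE, adjusted p = 0.0174). LOC_Os10g38730 had 9.24, 3.13 and 7.63 CPM in the tip pools, against 939 and 21.6 CPM in the mature root pools, a log2 fold change of -6.19 ± 1.29 (SE, adjusted p = 0.0176), carried by mature root pool 1. Of 149 tested heat shock proteins and chaperones 1 (0.671%) was higher and 6 (4.03%) were lower, below the shares of all tested rows. The list as a whole leaned the other way, with a median of 0.30 and 92 members positive. It took 3.62%, 4.07% and 3.81% of counts in the tip, against 2.79% and 2.36% in mature root. LOC_Os02g39870-ext, a GrpE co-chaperone, had 82.4, 59.8 and 68.7 CPM in the tip pools, against 397 and 321 CPM in the mature root pools, a log2 fold change of -2.35 ± 0.47 (SE, adjusted p = 0.0157). LOC_Os04g46390, a DnaJ chaperone, had 33.9, 16.4 and 79.0 CPM in the tip pools, against 413 and 217 CPM in the mature root pools, a log2 fold change of -2.87 ± 0.62 (SE, adjusted p = 0.02). Of 16 tested LEA and dehydrin genes, proteins of drying tissue, 2 were lower. In that list 10 members had a positive fold change, and the median was 0.66, or -0.15 without tip pool 2. Over the P450, transferase, chaperone and LEA lists 52 genes were lower, and 2 without mature root pool 1, 28 without mature root pool 2, 9 and 19 without tip pools 2 and 3, and 34 without mature root pool 2 of day 2. The P450 list gave 62 genes lower when no filter on low counts was used.

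The most abundant transcripts of the tip were for the greater part those of mature root as well. LOC_Os11g47760-ext, of the DnaK chaperones, had 18511, 16210.0 and 17306 CPM in the tip pools, against 14177 and 9262 CPM in the mature root pools, and LOC_Os03g08060-ext, described as elongation factor Tu, had 16701, 16469 and 14118 CPM in the tip pools, against 11935 and 7367 CPM in the mature root pools. Neither was called (adjusted p = 0.154 and 0.0834). Per length of exon, the highest level of the abundant genes was that of LOC_Os03g46770, with an RNA recognition motif, at a mean of 8167 TPM, a level scaled for exon length and depth, in the tip and 6399 TPM in mature root (adjusted p = 0.249). LOC_Os01g03390-ext (BBTI7), an inhibitor of trypsin-like proteases, was the one gene called higher among the abundant ones, with 5441, 4719.9 and 4728 CPM in the tip pools, against 2514 and 2206 CPM in the mature root pools, a log2 fold change of 1.07 ± 0.26 (SE, adjusted p = 0.0293). BBTI7 lost its call in the DESeq2 test (adjusted p = 0.0657). On the side of mature root the abundant genes called were the lyase LOC_Os02g41680-ext, given above, and LOC_Os01g25520-ext, a nitrite reductase of nitrogen assimilation. LOC_Os01g25520-ext had 1984, 1645 and 3044 CPM in the tip pools, against 6866 and 5404 CPM in the mature root pools, a log2 fold change of -1.46 ± 0.30 (SE, adjusted p = 0.017). LOC_Os01g74410-ext, a MYB factor, had 2539, 469 and 2330.4 CPM in the tip pools, against 6639.9 and 5506 CPM in the mature root pools, but tip pool 2 stood apart from the other tip pools and the difference was not called (adjusted p = 0.0643). All 3 calls in this group were lost without mature root pool 1 (adjusted p up to 0.175). Of the same 3, 1 was lost without mature root pool 2, and 1, 2 and 1 were lost without tip pools 1, 2 and 3.

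The libraries of day 2 gave the same contrast in other plants, with fewer calls: 16 genes higher (0.0832%) and 205 lower (1.07%). Of the 255 genes higher on day 6, 237 (92.9%) had a positive fold change on day 2, 155 (60.8%) had all tip libraries above both mature root libraries there, against 14.7% of all tested rows, and 7 were called. Of the 1106 genes lower on day 6, 1001 (90.5%) had a negative fold change on day 2, 777 (70.3%) had all tip libraries below, against 18.5% of all tested rows, and 161 were called. In all, 1238 of 1361 (91%) had the same sign, or 80.6% to 100% with a library left out in turn. Both days share the estimate of spread and the scaling but no library. Over lists, the median of ribosomal proteins was 1.31 on day 6 and 0.63 on day 2. In the same order, that of photosynthesis was -4.86 and -5.32, of P450s -2.10 and -1.01, and of WRKY factors -1.89 and -0.53. Some lists with medians nearer to 0 changed sign. Core histones had 0.75 and -0.09, and heat shock proteins and chaperones 0.30 and -0.01. Aquaporins had -0.15 and 0.37, and xyloglucan and pectin enzymes -0.05 and 0.22.

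**Figure D5:**
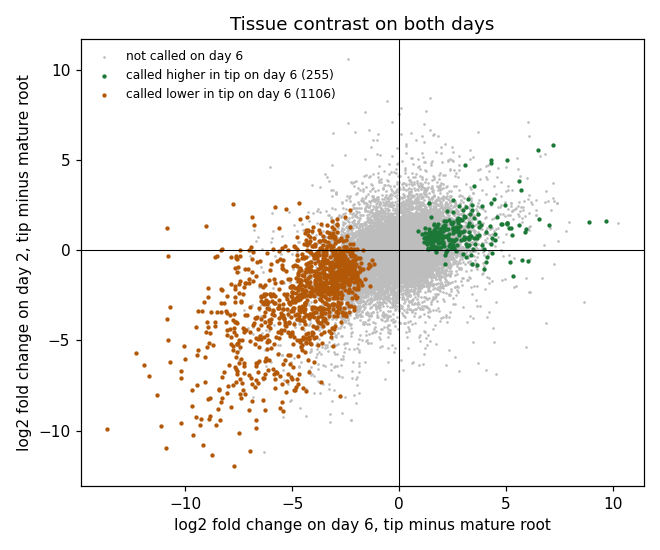
Log2 fold change of root tip minus mature root on day 6 (horizontal axis) against day 2 (vertical axis), 1 point per tested row, with genes called on day 6 in colour. Most called genes lie in the quadrants of equal sign, 1238 of 1361, while no difference between the days was called for any gene.

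A test of whether the contrast differed between days called no gene (0%) in edgeR, where 1821 genes (9.47%) had an unadjusted p under 0.05 and the smallest adjusted p was 0.513; DESeq2 called 97. What is said of day 6 is therefore not shown to be particular to that day. The 5 genes with the smallest p are given as values. LOC_Os01g74300, a metallothionein, had 20.0, 30.9 and 66.5 CPM in the tip pools, against 290.3 and 244 CPM in the mature root pools, and on day 2 it had 1.8, 2.93 and 7.49 CPM in the tip, against 846.5 and 1519.8 CPM in mature root. LOC_Os02g53690, the growth-regulating factor given above as higher in every tip pool on day 6, had 13.5, 16.1 and 14.4 CPM in the tip on day 2, against 37.1 and 197 CPM in mature root. LOC_Os03g06880, a kinase of the pfkB family, had 25.4, 43.4 and 38.2 CPM in the tip pools, against 5.81 and 7.82 CPM in the mature root pools, and on day 2 it had 2.69, 13.2 and 9.63 CPM in the tip, against 42.5 and 145 CPM in mature root. The first kept its direction on both days, and the other pair lay above mature root on day 6 and below it on day 2.

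The last of the 5 were named above for day 6. LOC_Os02g43710-ext, of the enoyl-CoA hydratase family, had 6.29, 8.8 and 4.81 CPM in the tip on day 2, against 6.67 and 12.6 CPM in mature root, which overlap. LOC_Os06g37300, the P450 with no count in the tip on day 6, had 0, 0.733 and 5.35 CPM in the tip on day 2, against 3.18 and 2.42 CPM in mature root. In both the day 2 pools of the tissues overlapped, and on day 6 they did not. Without mature root pool 2 of day 6 the difference between days was called for 2 genes, with a smallest adjusted p of 0.0265.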

How the data were processed

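Polyadenylated RNA of 10 libraries was sequenced, each from a pool of 6 plants, with 18 PCR cycles and no molecular identifiers, per the labels' protocols. Bowtie, TopHat 1.3.1, SAMtools 0.1.12a and Cufflinks 1.0.3 are listed in the submitters' processing notes. Not given in the sources used here are genome build, counting tool and strand setting; reads of overlapping or antisense genes therefore cannot be told apart. The authors deposited whole-number counts per row without normalization for 33486 rows, with descriptions that served as gene names. Sample descriptions tied each column to its library.

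The analysis ran in R 4.3.3 (edgeR 4.0.16, limma 3.58.1). Rows passing filterByExpr (minimum count 10, minimum total 15) were kept, libraries were scaled by TMM, and quasi-likelihood fits over the 4 groups gave the day 6 contrast, the day 2 contrast and their difference. All 10 libraries inform the spread, as mature root has only 2 per day. A gene is called where p, adjusted over all 19234 tested rows after Benjamini and Hochberg, is under 0.05, and a standard error is the log2 fold change divided by the root of its F statistic. Depth was 1428128 to 3286439 counts per day 6 library. Counts of 0 are given against a floor of 3 counts over the group, and ratios on 1 to 3 counts with exact 95% Clopper-Pearson intervals; both cover counting error only. TPM used the deposited exon lengths.

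Gene lists were 46 patterns on the descriptions, some corrected after matching unrelated descriptions, and 11 families were chosen after their values were seen. Members and lists were chosen with earlier results of these data known. Named genes were the 12 largest changes per direction among called, described, non-overlapping genes with at least 10 CPM, up to 3 called genes per list and direction by p (or the smallest p where none was called), the 8 most abundant genes per tissue, all marker genes and the 5 genes with the strongest evidence of a difference between days; not all are printed. Alternatives were other scalings, filters, the DESeq2 1.42.0 test, a fit of day 6 alone, replicate blocks and leaving out each library. With 1 library left in a group, it is assumed to vary like the others. The steps were tested on simulated counts.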

Additional observations from a re-analysis of the deposited data

How the results depend on the processing

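The 1361 genes called on day 6 became 1400 with DESeq2 size factors, 1350 with library totals as scaling and 1341 with at least 5 CPM in 2 libraries. They became 2981 without a filter on low counts, 2741 in the DESeq2 test and 596 in a fit of the 5 libraries of day 6 alone, and lay between 113 and 1379 with each library left out in turn. A replicate block over both days gave 579, and a block within each day 598. Same-numbered libraries showed no clear common deviation (correlations of residuals between -0.0447 and 0.023). With 2 mature root libraries a day, whose residuals mirror each other, this cannot show whether the numbers pair the samples. Calls among members of the 46 lists, 449 in all, became 717 without the filter, 667 in the DESeq2 test, 213 in the fit of day 6 alone, 224 with the replicate block, 232 with the block within a day, and 58 to 442 with a library left out. The count of 0 for the difference between days became 554 without the filter, 97 in the DESeq2 test and 0 to 2 with a library left out. The share of day 6 calls with the same sign on day 2, 91%, was 79.9% without the filter, 85.2% in the DESeq2 test, 94.3% with either replicate block and 80.6% to 100% with a library left out. Of 164 named genes 44 lost their call under the replicate block and 101 without mature root pool 1. The 164 include genes that were not called at the start and so had no call to lose. Signs reversed for uncalled marker genes, whose fold changes with a library left out ranged over -0.29 to 1.11 for LOC_Os01g73730, -0.91 to 3.84 for LOC_Os04g33520 (-0.97 with the block within a day), -1.37 to 0.01 for LOC_Os05g47940-ext and -0.58 to 0.09 for LOC_Os06g51380. Causes were not tested; leaving out a mature root library of day 6 leaves 1 there. Leaving out day 2 libraries, and all alternatives of the share on day 2, were chosen after seeing the data. With 3 counts worth up to 2.31 CPM, changes of genes below that level cannot be resolved.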
